A study of Mus musculus with 8 samples.

Results

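The regions described here are chromatin loops that were called after LPS in both CEBPA isoform lines and in neither line without LPS. Each loop connects bins of 5 kb in the mouse genome (mm39) by more contacts than distance and coverage predict, in H3K27ac HiChIP, which enriches contacts that touch chromatin carrying the acetylation mark of active promoters and enhancers. Members were selected on the deposited loop lists: the same first and second bin had to be listed for p30 LPS and for p42 LPS and to be missing from the p30 UT and p42 UT lists. This left 2861 of the 214313 loops in any list (1.33%), called LPS-only loops below, and 400 of them had no UT loop within 1 bin at each end (no close UT loop). Contacts and UT limits given as a pair are those of p30, then of p42.

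The cells were HPC-7, a mouse haematopoietic progenitor line, transduced with p30 or p42 fused to ERT2 and expressed constitutively. Each isoform line was left untreated (UT) or given 100 ng/mL LPS for 2 h, which makes 4 groups. Each group had 2 libraries, and the deposited list of a group pools both, so no spread between replicates could be measured. Every group carried an ERT2 fusion, and per the study's general culture methods such cells received 4-hydroxytamoxifen, which sends the fusions to the nucleus, on the day before an experiment. The labels do not repeat this for the HiChIP cells. Each list modelled between 14503330 (p30 LPS) and 18999991 (p42 UT) contacts, and the lists held 80489 and 94609 loops for p30 without and with LPS, and 158233 and 78591 for p42. Of 30 haematopoietic progenitor factors, between 21 and 23 had a loop at the start site in each list, against 2 to 7 of 20 marker genes of other cell types.

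LPS is a bacterial cell wall component that binds the TLR4 and MD-2 receptor and activates NF-κB, AP-1 and, through TRIF, interferon signalling. NF-κB enters the nucleus, binds κB sites near its targets and induces cytokines together with its own inhibitors, which end the response. CEBPA is a myeloid transcription factor, and p30 is its short isoform, which lacks part of the N-terminal transactivation domain of p42.

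Because the study's question concerns response genes, the bases before the start sites of such genes at LPS-only loops were searched for the κB consensus on both strands. In the 200 bases before the canonical start site, 9 of 33 genes of the response lists with an LPS-only loop held a κB word (27.3%, 95% Wilson interval 15.1 to 44.2). Among response genes with loops but no LPS-only loop the count was 16 of 154 (10.4%, 6.50 to 16.2). Among all 900 genes with an LPS-only loop it was 39 (4.33%, 3.19 to 5.87), against 3.77% of the 10514 genes with any loop and 3.52% of all 21738 protein-coding genes. The response groups were not matched for list. Of the 33 genes, 14 are on the list of NF-κB genes and feedback inhibitors, which has 46 genes with any loop. For the other words searched, the counts in response genes with and without an LPS-only loop were 5 of 33 (15.2%, 6.65 to 30.9) and 8 of 154 (5.19%) for AP-1 (TGACTCA), 1 and 10 (3.03% and 6.49%) for the interferon response element (ISRE), 0 and 4 for CEBP-ATF (TTGCATCA) and 0 and 1 for C/EBP (TTGCGCAA). The 9 genes with a κB word were Bst2, Ccl9, Cxcl10, Ier3, Il6, Nfkbia, Nfkbie, Tlr2 and Tnfaip3. Shown here are the windows of Cxcl10, Ccl9 and Bst2, whose LPS-only loops had no close UT loop, and those of Nfkbia and Il6 as examples of an NF-κB inhibitor and a cytokine (GRCm39, gene strand, 5′ to 3′, last base just before the start site), with the κB words in capitals. None of these 5 windows overlaps an exon of another annotated transcript, which also holds for Ier3 and Tlr2 (not shown). They lie at chr5:92496749-92496948 for the chemokine gene Cxcl10 (minus strand), chr11:83469468-83469667 for the chemokine gene Ccl9 (minus), chr8:71990115-71990314 for the antiviral gene Bst2 (minus), chr12:55539433-55539632 for the NF-κB inhibitor gene Nfkbia (minus) and chr5:30217912-30218111 for the cytokine gene Il6 (plus).
Cxcl10: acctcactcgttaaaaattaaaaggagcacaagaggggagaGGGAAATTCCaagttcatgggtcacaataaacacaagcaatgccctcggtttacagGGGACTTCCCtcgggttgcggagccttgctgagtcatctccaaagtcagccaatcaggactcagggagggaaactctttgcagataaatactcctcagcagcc
Ccl9: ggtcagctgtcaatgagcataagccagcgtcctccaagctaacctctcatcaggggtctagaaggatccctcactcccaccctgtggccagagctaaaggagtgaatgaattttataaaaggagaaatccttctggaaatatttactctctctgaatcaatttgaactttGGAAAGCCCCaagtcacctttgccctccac
Bst2: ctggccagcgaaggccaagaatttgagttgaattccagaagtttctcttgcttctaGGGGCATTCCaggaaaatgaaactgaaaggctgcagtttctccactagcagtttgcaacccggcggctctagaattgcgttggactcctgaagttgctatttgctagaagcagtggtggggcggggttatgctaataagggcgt
Nfkbia: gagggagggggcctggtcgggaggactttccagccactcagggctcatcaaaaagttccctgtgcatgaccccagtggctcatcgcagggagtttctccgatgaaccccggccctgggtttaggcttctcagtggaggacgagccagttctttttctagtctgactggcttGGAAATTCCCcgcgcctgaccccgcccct
Il6: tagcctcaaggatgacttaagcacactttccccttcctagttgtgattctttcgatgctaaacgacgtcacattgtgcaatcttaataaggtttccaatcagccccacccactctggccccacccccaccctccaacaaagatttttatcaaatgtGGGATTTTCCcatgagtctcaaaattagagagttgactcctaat
The Cxcl10 window held 2 κB words, which began at −159 and −103 from the start site, and in the other windows shown the word began at −30 (Ccl9), −144 (Bst2), −29 (Nfkbia) and −44 (Il6). A match is a description of the letters and not evidence of binding.

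LPS-only loops were 6.20% (5.99 to 6.43) of the 46110 loops in both LPS lists. In the same way, 10690 loops were listed in both UT lists and in neither LPS list, which is 18.1% of the 59069 loops in both UT lists. The crossed pair p30 UT with p42 LPS, which share neither isoform nor treatment, had 1687 exclusive loops (4.19%), and the other crossed pair, p30 LPS with p42 UT, had 14924 (21.95%). The LPS-only loops thus lay between the crossed pairs in number and share, as the bar plot of the 6 list pairs shows, and these counts differ with the length of the lists. With lists cut to equal size, LPS-only loops numbered 5018 of 42287 loops in both LPS lists, and the crossed pairs were not recounted. The 13.98% of LPS-only loops with no UT loop within 1 bin (12.8 to 15.3) compare with 13.3% in the smaller crossed pair and 19.0% in the UT pair.

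**Figure D1:**
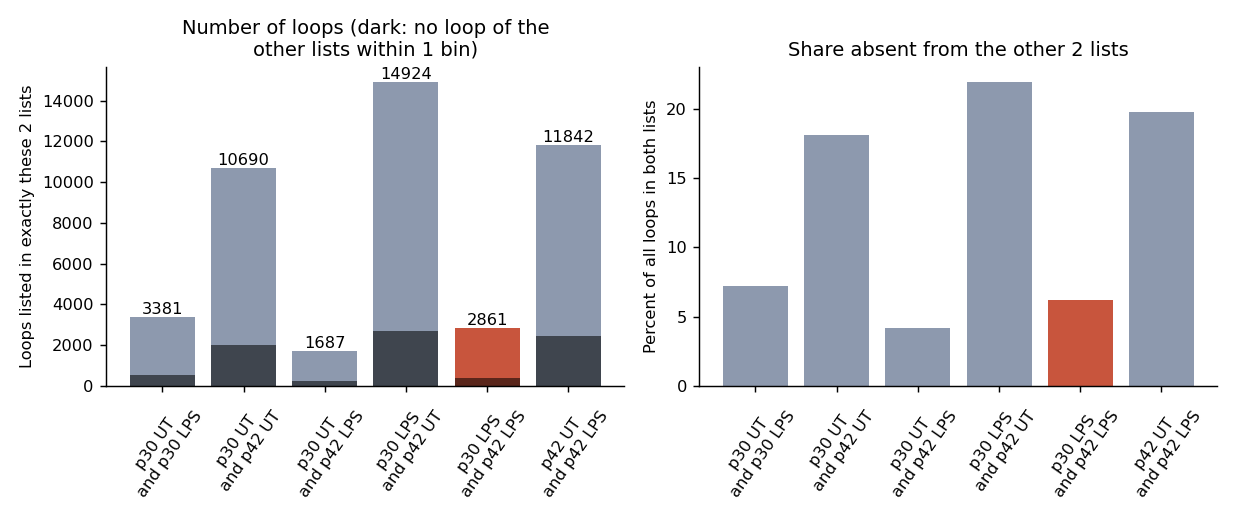
Left, number of loops listed in exactly 2 of the 4 lists for each pair of lists, with the part that has no loop of the other 2 lists within 1 bin in dark; right, the same number as percent of all loops in both lists. The p30 LPS and p42 LPS pair (red) holds 2861 loops, more than the 1687 of p30 UT with p42 LPS and fewer than the 10690 of both UT lists.

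Both bins were in UT loops with other partners for 2552 members (89.2%), 1 bin for 257, and no bin for 52. For all loops in both LPS lists the share with both bins in other UT loops was 96.2%, and for the exclusive loops of the other list pairs the matching share, in loops of the lists left out, was 82.9% to 86.8%. Of the 400 loops without a close UT loop, 258 (64.5%) had both bins in UT loops and 45 had none. The members used 5134 bins, of which 4645 were in 1 member, and the touching members merged into 2730 clusters, so the loops were spread over the genome. On the autosomes, members were between 4.81% (chromosome 17) and 8.27% (chromosome 13) of the loops in both LPS lists.

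The LPS-only loops had fewer contacts than the other loops of the LPS lists and were slightly longer. Their median distance was 40 kb (quartiles 15 and 85), against 35 kb (15 and 75) for all loops in both LPS lists, and 20.6% against 15.3% spanned over 100 kb. Among the exclusive loops of the other pairs the median ranged from 30 kb for p30 LPS with p42 UT to 60 kb for p30 UT with p42 LPS, so the members lay within that range. Median contacts were 16 in both LPS lists, against 25 and 25. Contacts over expected had a median of 4.17 in p30 LPS (quartiles 2.85 and 5.56) and 4.03 in p42 LPS (2.76 and 5.48), against 4.53 and 4.25. In p42 LPS the smaller crossed pair had medians of 13 contacts and 4.70 contacts over expected, so low counts were not particular to the members. A q-value under 0.001 in both LPS lists was reached by 27.3% of the members and by 67.7% of the other loops in both lists. The rule used these measures, so they are given as a description.

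By distance, members made up 4.99% of the loops in both LPS lists at 10 kb and 10.8% above 200 kb, and the smaller crossed pair went from 2.91% to 11.1% over the same bands. By contacts, the share was 15.7% among loops with 5 to 10 contacts in the weaker LPS list and 1.10% among those with over 50. Loops with no close UT loop were most frequent at the ends of the range, with 30.8% of the members at 10 kb and 22.02% above 200 kb, against 7.81% at 25 to 50 kb. Their median distance was 20 kb, and 35.8% lay at 10 kb, the shortest distance in the lists, where fewer neighbouring pairs exist.

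**Figure D2:**
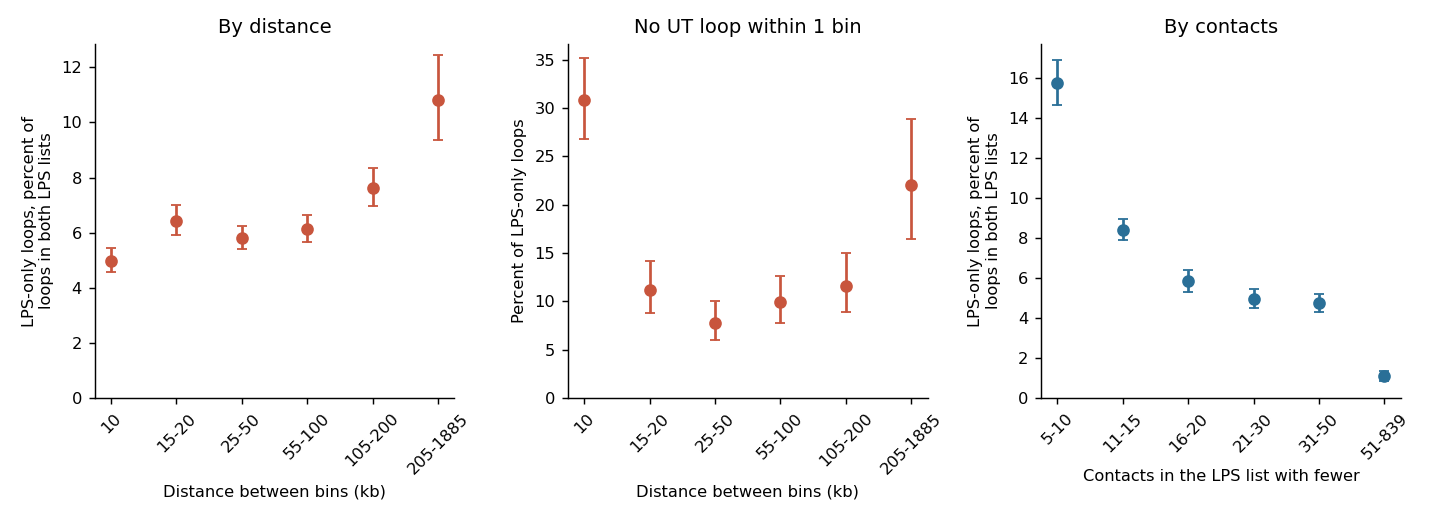
LPS-only loops as percent of all loops in both LPS lists by distance (left) and by contacts in the LPS list with fewer (right), and the percent of LPS-only loops with no UT loop within 1 bin by distance (middle); bars are 95% Wilson intervals. The share of LPS-only loops goes from 15.7% at 5 to 10 contacts to 1.10% above 50 contacts.

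At the threshold, the members just inside included a 10 kb loop on chromosome 3 with 33 (p30 LPS) and 44 (p42 LPS) contacts and a q-value of 0.00999 in p30 LPS. Just outside was a 10 kb loop on chromosome 1 with 68 and 53 contacts after LPS that was listed in p42 UT with 54 contacts at a q-value of 0.00998.

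How far an unlisted pair can have been below the threshold was computed from the lists, whose expected contacts could be recovered closely from distance and coverage. For a pair whose bins occur in a UT list this gives a UT limit, the most contacts the pair can have had there without being listed. Both UT limits existed for 1933 members, of which 166 had no close UT loop. Scaled by the modelled contacts of each list, the smaller of the p30 and p42 ratios of LPS contacts to the limit had a median of 1.30 (quartiles 1.20 and 1.40). It was above 1.5 for 319 members and above 2 for 15, with a highest value of 2.85. The lower 95% counting bound passed the scaled limit in both LPS lists for only 91 of the 1933 members (4.71%, 3.85 to 5.75). With contacts over expected, which takes coverage into account, the median was 1.19, and 73 members were above 1.5 and 3 above 2, with a highest value of 2.33. The rule all but fixes a ratio above 1, so these values, and the limits given for single loops below, are a description with no test. The actual UT contacts of unlisted pairs were not used here.

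A protein-coding start site lay in a bin of 788 members (27.5%, 25.9 to 29.2), against 35.9% of all loops in both LPS lists. Among the exclusive loops of the other pairs the share ranged from 25.3% in the smaller crossed pair to 34.3% in the other crossed pair. Among the 400 loops with no close UT loop the count was 130 (32.5%, 28.1 to 37.2). Start sites joined to another start site in 109 members. The partner bin of a start site held an exon in 55.8% of 679 members, an intron in 17.1% and no protein-coding gene in 27.1%, and for all loops in both LPS lists these shares were 56.0%, 16.8% and 27.3%. Both bins were H3K27ac peak bins in 90.2% of the members, against 92.9%. A κB word was found in 41.4% of the members' peak bins (40.1 to 42.8) and 39.0% of all peak bins of loops in both LPS lists. The AP-1 word TGACTCA was found in 61.8% against 60.9%, the C/EBP word TTGCGCAA in 0.575% against 0.613%, the CEBP-ATF word TTGCATCA in 11.3% against 11.01%, and the interferon response (ISRE) word in 48.2% against 48.7%, all on both strands and with a median GC content of 46.3% and 46.4%. The κB share was thus slightly higher in the members' bins, and the intervals of the other shares in the members' bins held the values of all looped bins.

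In all, 900 of the 10514 genes with any loop had an LPS-only loop at the start site (8.56%), and 177 had one with no close UT loop (1.68%). The list of NF-κB genes and feedback inhibitors, called NF-κB genes below, also holds genes such as Cish, Pim1 and Sqstm1. In this list the count was 14 of 46 (30.4%), among AP-1 and immediate early genes 7 of 34 (20.6%) and among granulocyte genes 4 of 23 (17.4%). It was 5 of 38 interferon genes (13.2%), 4 of 33 LPS sensing genes (12.1%), 3 of 36 cytokine and chemokine genes (8.33%), 2 of 23 haematopoietic progenitor factors (8.70%), 1 of 6 CEBP genes and none of 7 markers of other cell types. Genes with more loops had more chances to be counted, and with a window of 1 bin more the share was 41.3% for NF-κB, 39.1% for granulocyte and 17.5% for all genes. The NF-κB genes had a median of 7 loops in p30 LPS against 2 for all genes. Per loop, 18 of the 288 loops in both LPS lists at NF-κB start sites were LPS-only (6.25%, 3.99 to 9.66), against 4.75% at all start sites. The share was 7.27% (3.73 to 13.7) for AP-1 genes, 2 of 25 loops for CEBP genes, 5.94% for interferon genes and 5.88% for LPS sensing genes. It was 4.13% for cytokine and chemokine genes, 3.85% for granulocyte genes, 1.98% for progenitor factors and 0 of 3 loops for markers of other cell types.

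The gene lists also differed in the balance of LPS-only and UT-only loops. UT-only loops were 6.43% of the 280 loops in both UT lists at NF-κB start sites and 15.6% of the 21118 at all start sites. At NF-κB start sites there were 18 LPS-only and 18 UT-only loops (50.0% LPS-only, 34.5 to 65.5), whereas all start sites had 788 and 3285 (19.3%, 18.2 to 20.6). Progenitor factors had 2 and 16 (11.1%, 3.10 to 32.8), and the markers of other cell types 0 and 5. Cytokine and chemokine genes had 5 and 9, interferon genes 6 and 12, AP-1 genes 8 and 17, LPS sensing genes 4 and 11, granulocyte genes 4 and 10, and CEBP genes 2 and 7. With lists cut to equal size the shares were 76.9% at NF-κB start sites and 43.5% at all start sites. Loops of 1 gene share a bin and are not independent, so the intervals cover counting error alone.

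**Figure D3:**
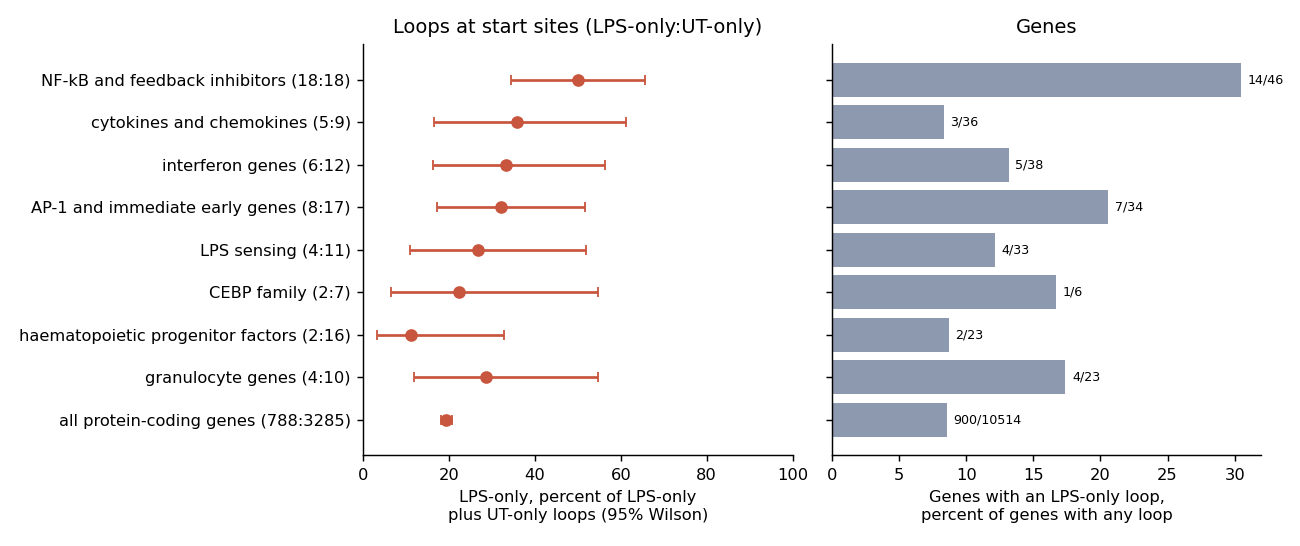
Left, LPS-only loops as percent of LPS-only plus UT-only loops at start sites of each gene list, with 95% Wilson intervals and both counts in the label; right, genes with an LPS-only loop as percent of the genes with any loop. The list of NF-κB genes and feedback inhibitors lies highest in both panels (50.0% and 30.4%), and the markers of other cell types, with no LPS-only loop, are not drawn.

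Many of the loops described next were near the calling threshold. With q-values under 0.001 in both LPS lists, 15 of 42 named genes still had an LPS-only loop, namely Nfkb2, Nfkbia, Nfkbiz, Ikbke, Cish, Pim1, Zfp36, Il6, Gbp2, Tlr2, Gimap8, Tmem120b, Tmem95, Alg3 and Arf6, and 27 had none. Among NF-κB subunits, Nfkb2, which encodes the p100 precursor of p52, had 3 LPS-only loops. They joined its start-site bin (chr19:46290001-46295000) to bins 20, 40 and 140 kb away with 31, 20 and 13 contacts for p30 and 24, 18 and 9 for p42. The UT limits were 23, 14 and 9 contacts in p30 and 21, 13 and 8 in p42. Start-site loops of Nfkb2 numbered 13 in p30 UT and 18 in p30 LPS, and 11 in both p42 lists. Such counts differ with the length of the lists. Of the 10514 genes with any loop, p30 listed more with LPS at 4944 and fewer at 2570. In p42, more were listed with LPS at 449 genes and fewer at 8690.

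The NF-κB inhibitor and co-regulator genes had 4 such loops. Nfkbia, whose product IκBα holds NF-κB in the cytoplasm, was joined to an intergenic bin 10 kb downstream (chr12:55525001-55530000) by 50 and 56 contacts, with UT limits of 38 and 53. Nfkbie, encoding IκBε, was joined to the Hsp90ab1 bin 25 kb away by 21 and 22 contacts against limits of 21 and 20. Nfkbiz, encoding the nuclear co-activator IκBζ, was joined to an exon bin of Nxpe3 30 kb away by 16 (95% Poisson interval 9.15 to 25.98) and 18 (10.7 to 28.4) contacts, with limits of 12 and 12, and no close UT loop was listed. Bcl3, an atypical IκB that binds p50 and p52, had a 15 kb loop with 54 and 34 contacts, against limits of 26 and 29. With contacts over expected, which take coverage into account, its ratios to the limits were 1.30 in p30 and 1.09 in p42.

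Of the kinases, Ikbke, which phosphorylates IRF3, had loops of 245 and 280 kb from its start site into and beyond Srgap2. The 280 kb loop had 15 and 11 contacts with limits of 7 and 7, and the scaled ratio to the limit was 2.66 in p30 and 1.89 in p42. With contacts over expected this ratio was 2.05 in p30 and 1.57 in p42. Map3k8, the TPL2 kinase that links NF-κB1 to ERK, had a 95 kb loop with 8 and 10 contacts. The p30 count of the 280 kb loop had a lower Poisson bound of 8.40, above its limit, and the intervals of the other Ikbke and Map3k8 counts given reached their limits where these exist.

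The feedback genes included Tnfaip3, encoding the deubiquitinase A20 that shuts off NF-κB signalling. Its start-site bin (chr10:18890001-18895000) was joined to a bin 225 kb away (chr10:19115001-19120000) that holds the start of the non-coding gene Gm40607, by 8 (3.45 to 15.8) and 10 (4.80 to 18.4) contacts. The UT limits were 7 and 7, and no close UT loop was listed. In all, the Tnfaip3 start site had 7 loops without and 24 with LPS in p30, and 20 without and 18 with LPS in p42. In p42, 8690 of the 10514 genes with any loop had fewer with LPS.

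Cish, a suppressor of cytokine signalling, had 2 LPS-only loops. The 10 kb loop had 95 (76.9 to 116) and 68 (52.8 to 86.2) contacts against limits of 48 and 46, so both intervals lay above the unscaled limits. With contacts over expected, which take coverage into account, its ratios to the limits were 1.37 in p30 and 1.21 in p42. The 220 kb loop to an exon of Cacna2d2 had 10 and 12 contacts and no close UT loop. Pim1, a kinase gene induced by cytokines, had a 25 kb loop with 45 and 32 contacts against limits of 26 and 24. The other feedback genes were near their limits: Zfp36, whose product degrades cytokine mRNAs, had 20 and 22 contacts with limits of 20 and 21, the autophagy receptor gene Sqstm1 had 17 and 17 with limits of 17 and 17, and the early response gene Ier3 had 11 and 14 with limits of 11 and 11. Ier5 had 16 and 12 with limits of 11 and 11.

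**Figure D4:**
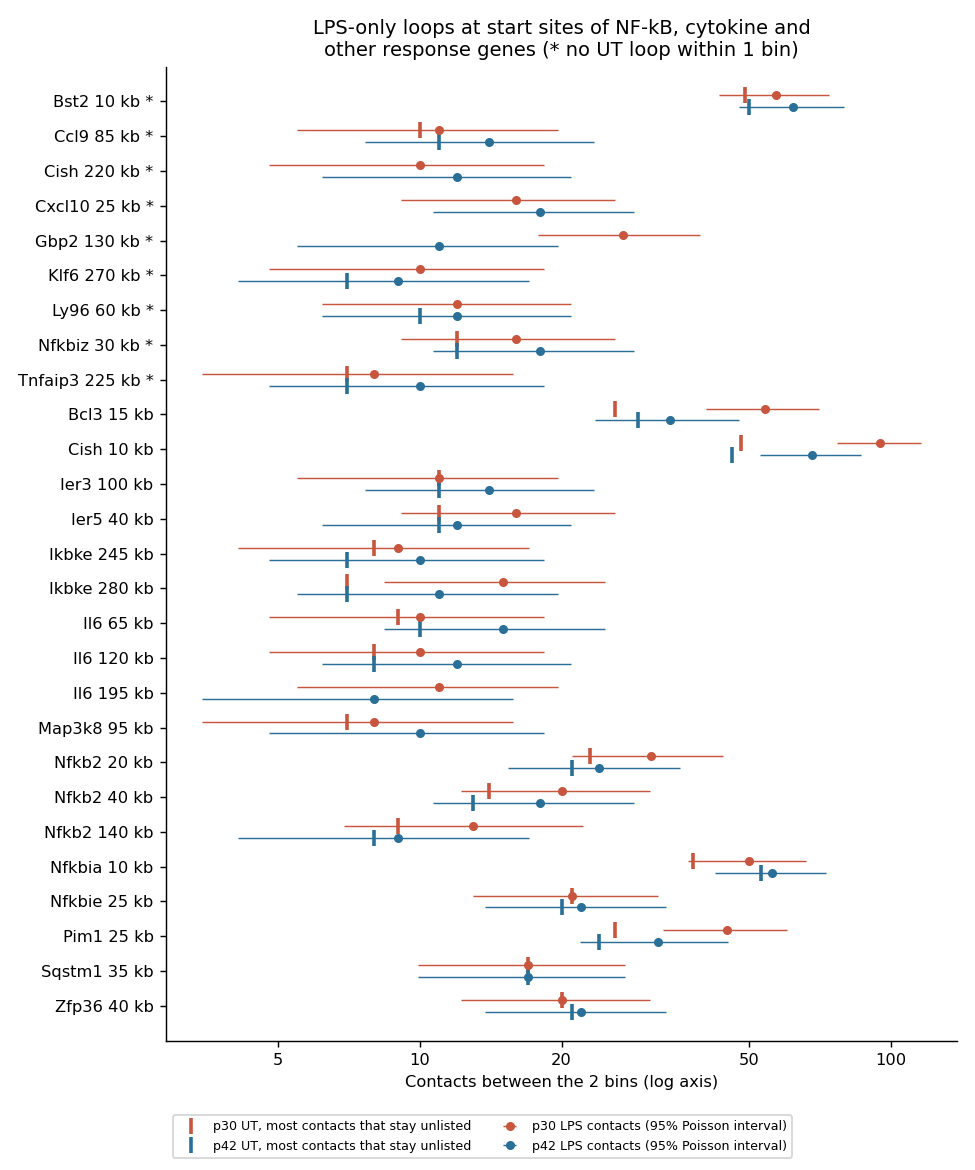
Contacts of LPS-only loops at start sites of NF-κB and cytokine genes, and of other response genes with no close UT loop (*), in p30 LPS (red) and p42 LPS (blue), with 95% Poisson intervals on a log axis; vertical ticks are the UT limits, unscaled, where they exist. Most points lie at or just above their tick, and the farthest from it in both lists include Ikbke (280 kb, 15 and 11 contacts against limits of 7 and 7) and Cish (10 kb, 95 and 68 against 48 and 46). With contacts over expected, the ratios to the limits were 2.05 and 1.57 for Ikbke and 1.37 and 1.21 for Cish.

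In the cytokine list, Cxcl10, a chemokine gene induced by interferon and NF-κB, was joined to an exon bin of Art3 25 kb away by 16 and 18 contacts, with no close UT loop. Its start site had no loop in either UT list, 1 in p30 LPS and 2 in p42 LPS. The chemokine gene Ccl9 was joined to Taf15 85 kb away by 11 and 14 contacts, with limits of 10 and 11 and no close UT loop. Il6, encoding interleukin-6, had 3 LPS-only loops of 65, 120 and 195 kb, all to bins upstream, with 10, 10 and 11 contacts for p30 and 15, 12 and 8 for p42. The UT limits were 9 and 10 for the 65 kb loop and 8 and 8 for the 120 kb loop, and the 195 kb loop has no limit. With contacts over expected, the p30 ratio of the 65 kb loop to its limit was 0.98. Loops at the Il6 start site numbered 2 and 9 in p30 UT and LPS, and 6 and 12 in p42 UT and LPS, so both isoforms listed more with LPS.

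Of the interferon genes, Gbp2, an interferon-induced guanylate-binding protein gene, was joined to an exon bin of its paralogue Gbp5 130 kb away (chr3:142195001-142200000). The loop had 27 (17.8 to 39.3) contacts in p30 LPS, 15.7 times expected, and 11 (5.49 to 19.7) in p42 LPS, 6.57 times expected. The difference between the isoforms did not pass the exact binomial test (adjusted p = 0.160 over all 46110 loops, log2 p42 over p30 −1.30). Bst2, encoding tetherin, had a 10 kb loop with 57 and 62 contacts and limits of 49 and 50, and no close UT loop. The interferon receptor genes Ifnar1 and Ifnar2 had 2 and 1 LPS-only loops within the same stretch of chromosome 16, of which the 45 kb loop of Ifnar1 had 24 and 16 contacts with limits of 14 and 14. Stat3, a mediator of interleukin-6 signalling, was joined to Rab5c 220 kb away by 9 and 12 contacts.

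The AP-1 and early genes had 8 LPS-only loops. Klf6, a zinc finger gene induced by inflammatory signals, had a 270 kb loop with 10 and 9 contacts and no close UT loop. Within the basic leucine zipper genes, Batf had a 10 kb loop into its own intron (45 and 41 contacts, limits 37 and 38), Batf3 a 175 kb loop (11 and 10), Maff a 10 kb loop (51 and 47, limits 47 and 47) and Mafg a 65 kb loop (13 and 13, limits 12 and 12). Srf, the serum response factor gene, had 2 loops, and Gadd45a, a stress gene, had 1. No loop of Fos, Jun or Egr1 was among them.

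LPS sensing genes contributed Ly96, which encodes the MD-2 subunit that binds LPS, with a 60 kb loop to an intergenic bin (12 and 12 contacts) and no close UT loop. The receptor gene Tlr2 was joined to Tmem131l 55 kb away by 12 and 16 contacts. Ticam1, encoding the adaptor TRIF, was joined to Sema6b 140 kb away by 18 and 10 contacts with limits of 9 and 9. Unc93b1, which carries endosomal Toll-like receptors, had a 10 kb loop with 42 and 49 contacts, below the unscaled limits of 45 and 50. In the CEBP family, Cebpb alone had members: its start-site bin (chr2:167530001-167535000) was joined to bins 110 and 215 kb away by 9 and 8 contacts for p30, with limits of 8 and 7, and by 10 and 8 for p42, with limits of 9 and 7.

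Over all genes, 810 had 1 LPS-only loop, 85 had 2, 4 had 3 and 1 had 4. The gene with 4 was Gimap8, of the GTPases of immunity-associated proteins, and all its partners lay in the Gimap cluster on chromosome 6. The loop to Gimap6 55 kb away had 27 and 13 contacts with limits of 9 and 8. Its scaled ratio in p30, 3.72 (2.69 with contacts over expected), was the highest p30 ratio of any member. Loops with a bin in a Gimap gene numbered 20 without and 54 with LPS in p30, and 12 without and 14 with LPS in p42. Over all genes p42 listed fewer start-site loops with LPS at 8690 and more at 449. The genes with 3 were Il6, Nfkb2, Tmem120b and Tmem95. The Tmem120b loops reached the Setd1b methyltransferase gene 70 and 80 kb away and exons of AI480526 65 kb away, with 10 to 15 contacts. The Tmem95 bin, which also holds an exon of Kctd11, reached Senp3, Polr2a and Fgf11, with 9 to 13 contacts. Acsl5, Ahi1, Alg3, Apeh and Arf6 come first in the alphabet among the 85 genes with 2. The Arf6 loop of 150 kb had 18 and 11 contacts with limits of 8 and 8, and the Ahi1 loops spanned 635 kb (to an exon of Bclaf1) and 660 kb, among the 3 members of 500 kb or more.

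Of the 400 loops with no close UT loop, the highest contacts over expected, taking the smaller of the p30 and p42 values, belonged to Zfp459, a zinc finger gene, with a 40 kb loop of 6 and 5 contacts over 0.427 and 0.327 expected. The 9 that followed spanned 50 to 485 kb with 8 to 14 contacts each. They included a loop from the Cryzl1 bin to Itsn1 (220 kb, 14 and 11 contacts, limits 7 and 7), Coro1a to Qprt (410 kb, 10 and 9 contacts) and Rala to Yae1d1 (50 kb, 11 and 11). None of these genes is on a response list, and none of the counts exceeded 14.

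p42 LPS and p30 LPS were compared by an exact binomial test on the contacts of each loop in both LPS lists, which compares 2 pooled lists and not isoforms across replicates. Of the 46110 loops, 98 had more contacts in p42 LPS (0.213%) and 633 more in p30 LPS (1.37%) at an adjusted p under 0.05. Among the LPS-only loops 0 had more in p42 LPS and 4 more in p30 LPS, and 38 (1.33%) passed an unadjusted p under 0.05, against 9.56% of all. The rule requires both lists, and the members have few contacts, so the share among members cannot be compared with that among all loops. The SD of log2 p42 over p30 contacts across members was 0.30, against 0.51 from counting error. By this exact test the 4 were a 10 kb loop in the non-coding gene Gm33440 (92 and 40 contacts, adjusted p = 0.000234), a 10 kb loop in the non-coding gene Gm12979 (122 and 63, 0.000411), a 10 kb loop in an intron of Ubtd2 (76 and 41, 0.0253) and the 15 kb loop from Sema3b to Gnai2 (78 and 45, 0.0407). With expected contacts in place of list totals 0 of the LPS-only loops passed in either direction. Contacts over expected of these 4 loops were 2.43 and 2.33, 2.60 and 2.06, 2.67 and 1.96, and 2.45 and 2.03.

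HiChIP coverage of a bin, the reads it holds relative to the mean of peak bins in the same list, had a slightly higher median with LPS at the bins of these loops. At the members' bins the log2 of LPS over UT coverage had a median of 0.06 in p30 and 0.04 in p42 (3904 peak bins in all 4 lists), against 0.005 and −0.02 at the 27045 bins of all loops in both LPS lists. Coverage was higher with LPS in both isoforms at 37.4% of the members' bins against 25.6%, and lower in both at 20.4% against 28.9%. At the 14 NF-κB start sites with an LPS-only loop the medians were 0.63 and 0.34, with 14 higher in p30 and 11 in p42. At start sites with an LPS-only loop, the medians were 0.56 and −0.08 for 5 interferon genes, 0.42 and 0.004 for 6 AP-1 genes, 0.45 and 0.20 for 4 LPS sensing genes and −0.003 and −0.31 for 2 progenitor factors. The 40 NF-κB start sites measured had medians of 0.43 and 0.05, and progenitor factors −0.13 and −0.27. Among the response genes with an LPS-only loop, the highest in p30 were Bcl3 (1.31 in p30, 0.48 in p42), Ikbke (1.29 and 0.59), Tnfaip3 (0.97 and 0.61), Nfkb2 (0.93 and 0.34), Ly96 (0.89 and 0.10), Cish (0.82 and 0.72) and Gbp2 (0.79 and 0.82). The caller takes coverage into its expected contacts, and its part in the LPS-only calls was not tested.

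**Figure D5:**
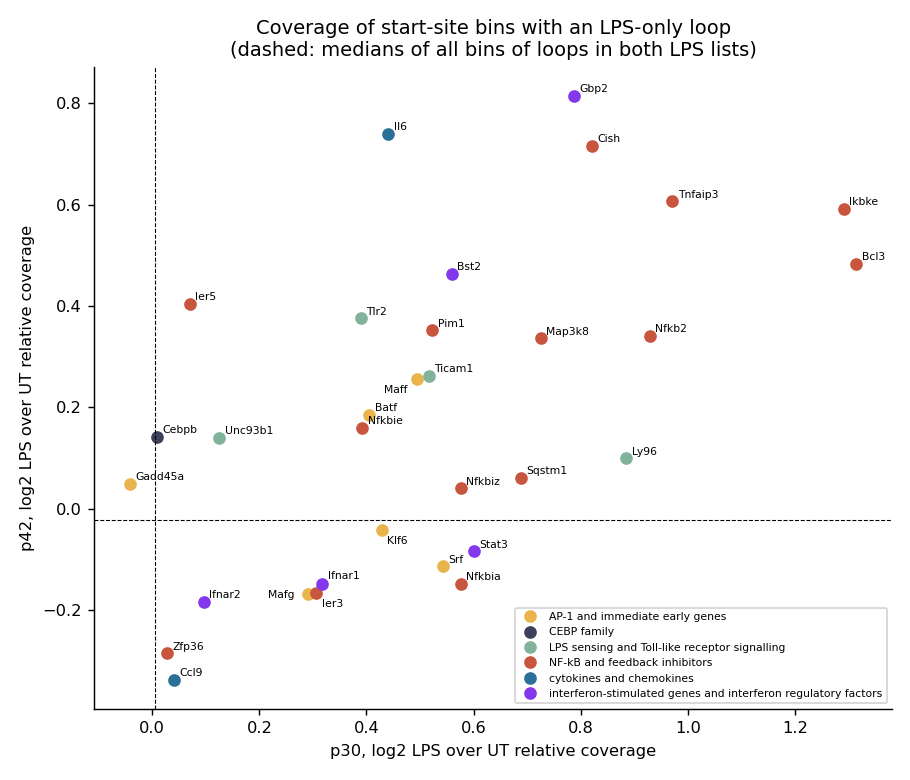
Log2 of LPS over UT relative coverage of the start-site bin in p30 (x axis) and p42 (y axis) for response and CEBP genes with an LPS-only loop, 1 point a gene, coloured by list; dashed lines are the medians of all bins of loops in both LPS lists. All points but Gadd45a lie right of the vertical line, and those of Bcl3 and Ikbke lie farthest, at 1.31 and 1.29 in p30.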

How the data were processed

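H3K27ac HiChIP libraries (MNase kit, 8 in all) were aligned by the authors to mm39 with BWA 0.7.17, and loops were called with FitHiChIP at 5 kb on the pooled replicates. Deposited values were the contact count per loop, bin coverage counts, coverage bias as a ratio to the class mean, expected contacts, the contact probability as a fraction, p-values and q-values under 0.01. Expected contacts were recovered from distance and bias per list, and p-values recomputed so differed from the deposited p-values by at most 0.987%. Start sites were the GENCODE M39 canonical transcripts of protein-coding genes, and 321 of 322 list genes matched. The members and gene lists were chosen with earlier results of these data known. Named were response-list genes at loops without close UT loops, the 10 genes with most LPS-only loops (ties by alphabet), the 10 such loops highest over expected, CEBP genes and loops called between isoforms, and other response-list genes with a member were added. Two-sided exact binomial tests used all 46110 loops with Benjamini-Hochberg adjustment (scipy 1.17.1). On simulated counts 63.5% of 200 planted 4-fold changes were recovered. These were drawn from all 46110 loops and set as more contacts in p42 LPS. The recovery among members, which have fewer contacts, was not computed. The authors removed PCR duplicates, and intervals cover counting error only, not the spread between replicates.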

Additional observations from a re-analysis of the deposited data

Results flagged for a closer look

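At 11 of the 32 response and CEBP genes with an LPS-only loop and a coverage value (34.4%), the coverage of the start-site bin moved in opposite directions with LPS in p30 and p42, and the difference between the isoforms was not tested, since each group is 1 pooled list. The same held for 42.2% of the members' bins and 45.5% of the bins of all loops in both LPS lists. Coverage was higher with LPS in p30 and lower in p42 at 10 of them (31.3% of the 32), against 23.1% of the members' bins and 25.2% of the bins of all loops in both LPS lists. The p30 minus p42 difference of the log2 ratio was 0.72 at Nfkbia, 0.68 at Stat3, 0.66 at Srf, 0.47 at Ier3, 0.47 at Klf6, 0.47 at Ifnar1, 0.46 at Mafg, 0.38 at Ccl9, 0.31 at Zfp36 and 0.28 at Ifnar2. At Gadd45a the signs were turned, with a difference of −0.0905.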

How the results depend on the processing

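No paired analysis was possible because the replicates of each group were pooled in 1 list. Without replicates no call has a replicate check, and loops of few contacts are limited by depth. The number of LPS-only loops was 2836 on autosomes, 2581 with both bins peak bins, 2113 from 20 kb and 2730 after merging touching pairs. It was 780 with q-values under 0.001, 980 with at least 20 contacts and 5018 with lists of equal size (the 78591 smallest q-values of each). Where the cause of these shifts is not the construction of the alternative, it was not tested. In the same order of the last 3, loops with no close UT loop were 11.8%, 18.2% and 18.5%, and 10.6% from 20 kb, while 7.41% had none within 2 bins. The median contacts over expected in p30 LPS were 4.61 (q-value), 2.51 (contacts), 4.91 (20 kb) and 3.98 (peak bins), and in p42 LPS 4.45, 2.46, 4.74 and 3.85, with 3.796 for lists of equal size. With at least 20 contacts the median distance was 15 kb and 19.1% had a start site, and from 20 kb these were 60 kb and 31.4%. Start sites were in 51.7% with a window of 1 bin more, and in 47.3% with all GENCODE genes. Members with more contacts in p30 LPS were 2 (q-value), 7 (equal size), 0 (20 kb) and 0 (expected contacts), and at equal size 1 had more in p42 LPS. Of the 42 named genes, 27 had no LPS-only loop left with q-values under 0.001, among them Bcl3, Bst2, Ccl9, Cebpb, Cxcl10, Ier3, Ier5, Klf6, Ly96, Nfkbie, Stat3, Ticam1 and Tnfaip3. None was left at 30 with at least 20 contacts, at 6 from 20 kb, at 2 with both bins peak bins (Batf3, Gbp2) and at 4 with lists of equal size (Apeh, Ier3, Map3k8, Unc93b1).

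With a window of 1 bin more, genes with an LPS-only loop numbered 19 (NF-κB), 7 (cytokine), 10 (interferon), 10 (AP-1), 7 (LPS sensing), 5 (progenitor), 9 (granulocyte), 1 (other cell types) and 1838 (all). Among loops with no close UT loop they were 3 (NF-κB), 2 (cytokine), 2 (interferon), 1 (AP-1), 1 (LPS sensing), 0 (CEBP), 0 (progenitor), 1 (granulocyte) and 177 (all). The balance at equal list size, an alternative added after the data were seen, was 76.9% for NF-κB and 43.5% for all genes. In peak bins of loops with no close UT loop, AP-1 words were in 59.7%, CEBP-ATF words in 13.4% and interferon words in 52.6%.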

Other observations

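Some bins held several LPS-only loops, and these were chosen after their values were seen. The bin with most, 6 loops of 15 to 60 kb, lies at chr11:62075001-62080000 in an intron of Specc1, and 1 of its partners is the start site of the adenosine receptor gene Adora2b. The loops had 10 to 34 contacts with p30 and 11 to 39 with p42. A bin beside Ifnar2 (chr16:91160001-91165000) had 5 loops of 135 to 325 kb, whose partners include exons of Ifnar1 and Ifngr2, with 9 to 11 contacts with p30 and 9 to 12 with p42. Another bin with 5, at chr16:95630001-95635000, was joined to the start site of the transcription factor gene Ets2 130 kb away by 10 and 11 contacts. The fourth, at chr8:127530001-127535000, lies in non-coding genes and had 5 loops of 120 to 300 kb, of which the 205 kb loop had 16 and 16 contacts against UT limits of 8 and 8. An exon bin of Srgap2 (chr1:131450001-131455000) had 4, which include loops to the start site and an exon of Ikbke.

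The granulocyte genes with an LPS-only loop were Mpo, Elane, Itgb2 and Fcgr3, and their start sites had a median log2 LPS over UT coverage of −0.17 in p30 and −0.42 in p42. The longest member joined bins 1885 kb apart on chromosome 2 (9 and 7 contacts) and had no close UT loop.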
